A study of Bos taurus with 81 samples.

Results

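The regions described here carried the histone mark H3K27me3 in the bovine oocyte, lacked it in embryos with 2, 4 and 8 cells, and carried it again in the blastocyst. The 29 autosomes were divided into 5 kb bins, and a bin was called marked in a library where at least 50% of it lay under the deposited peaks. A bin was a member where both libraries of germinal vesicle oocytes (GV) and both libraries of whole blastocysts (BL) marked it with H3K27me3 and none of the 6 libraries of 2-cell (2C), 4-cell (4C) and 8-cell (8C) embryos did. This held for 13223 of 497623 autosomal bins (2.66%), or 66.1 Mb. Of the 21081 bins marked in both GV and both BL libraries, members made up 62.7%, 13.1% were marked in all 6 cleavage libraries, and 24.2% were marked in some of them.

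The study profiled 4 histone marks by CUT&Tag, in which an antibody directs a transposase to the mark, and open chromatin by ATAC-seq. Oocytes came from slaughterhouse ovaries, and all embryos were produced in vitro. Control groups were GV oocytes, taken before maturation, 2C embryos at 32 h after insemination, 4C at 44 h, 8C at 56 h, morulae (MO) at 122 h, BL at 172 h, and both blastocyst lineages apart: the inner cell mass (ICM), the source of the fetus, and the outer trophectoderm (TE). The ICM was freed by immunosurgery, and the TE was cut from blastocysts with a micro scalpel. A further group of 8-cell embryos was cultured with 50 μg/ml α-amanitin, an inhibitor of RNA polymerase II (8A). Each library pooled about 500 oocytes or 1000 to 1500 blastomeres, and each mark had 2 libraries per group, so p-values measure the spread between pooled libraries, which may be technical. Sequencing depth is unknown. The H3K27me3 lists covered 110 to 281 Mb of the autosomes, those of H3K4me3 37.7 to 176 Mb, those of H3K27ac 43.4 to 142 Mb and those of H3K9me3 96.6 to 188 Mb, and no pair of replicate lists was identical.

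H3K27me3 is deposited by Polycomb repressive complex PRC2 and marks silent genes, many of them regulators of development. H3K4me3 is typical of promoters, and in oocytes it can also lie over long intergenic stretches. H3K27ac sits on the same lysine as H3K27me3, so that a single histone tail cannot carry both, and it marks active promoters and enhancers. H3K9me3 is the mark of constitutive heterochromatin and silenced repeats. In cattle the main activation of the embryonic genome takes place around the 8-cell stage.

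The GV, 2C, 4C, 8C and BL lists of H3K27me3 chose the members, so their values are a description. H3K27me3 peaks covered 92.8% and 89.4% of member length in the GV libraries and 93.8% and 94.0% in the BL libraries. In cleavage the 6 libraries covered 0.644% to 0.953%, and 11889 members (89.9%) had no covered base in any of them. Of all autosomal bins, 7.58% were marked in both libraries at GV, 3.52% at 2C, 4.76% at 4C, 4.52% at 8C and 10% at BL. Few bins lay at the limits: 371 members were covered by 40% to under 50% in the cleavage list that covered them most, and 532 bins just outside were covered by 50% to 60%. On the GV and BL side, 1812 members had 50% to 60% cover in the list with least, and 1744 bins just outside had 40% to under 50%.

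Each list was also left out of the rule in turn. Bins chosen by the other 9 lists were marked in the GV list left out in 90.6% (replicate 1) and 82.6% (replicate 2) of cases. For the BL lists the shares were 92.6% and 94.7%. The cleavage lists left out marked 1.2% to 2.39% of the bins chosen without them. Those bins were still chosen as unmarked in the other 5 cleavage lists, the same stage's other replicate included, so these shares are a description of the rule's lists and no independent support.

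**Figure D1:**
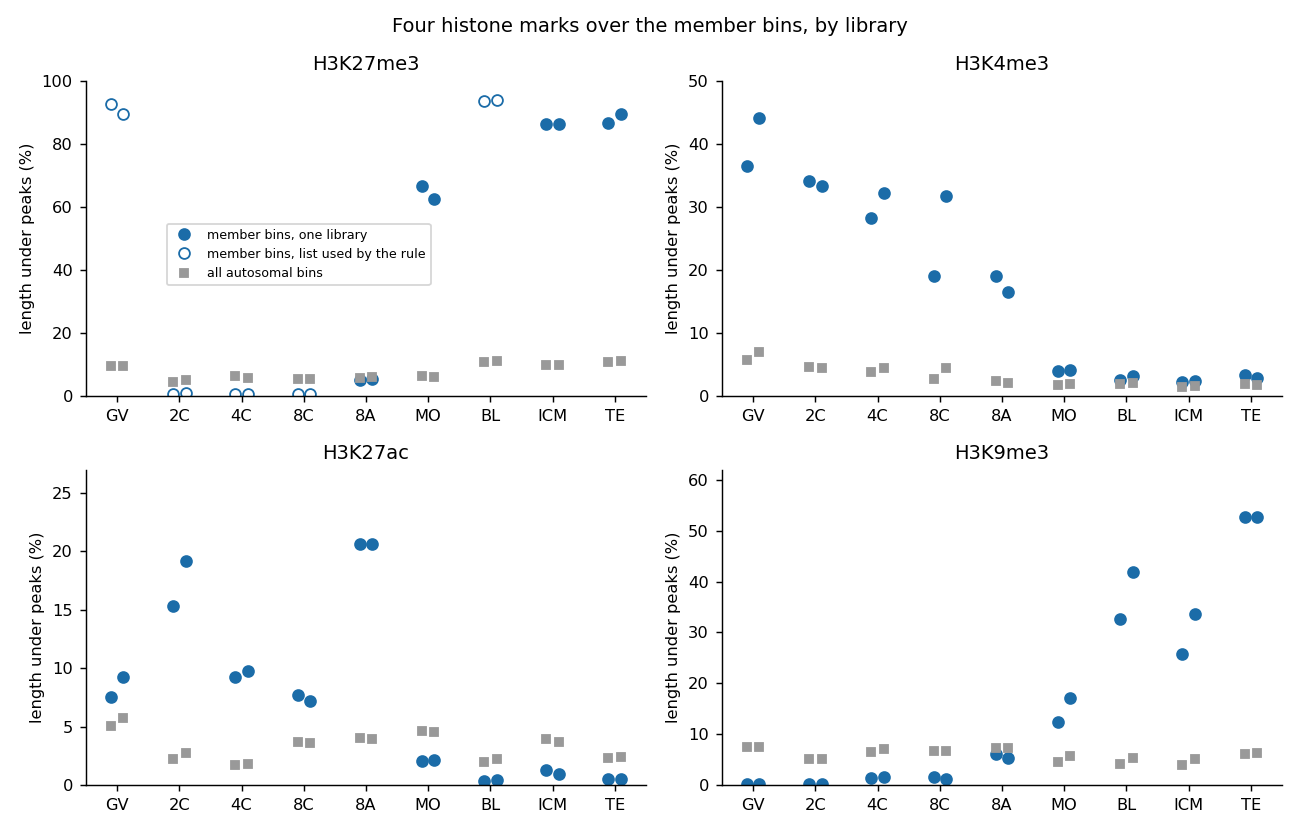
Percent of length under peaks of each mark (y axis) in every library of the 9 groups (x axis), over member bins (circles; open where the list entered the rule) and all autosomal bins (grey squares). In members H3K4me3 fell from 36.5% and 44.2% in GV oocytes to 3.96% and 4.16% in morulae, while H3K9me3 reached 52.8% in both TE libraries.

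The mark was already back in most members at the morula stage, in libraries that the rule did not use. MO replicate 1 marked 70.5% of members and replicate 2 marked 66.5%, and both together marked 8278 members (62.6%, against 5.41% of all autosomal bins and 67.3% of the 21081 bins marked in both GV and both BL libraries). Neither MO library marked 3386 members (25.6%). The label "regained by blastocyst" thus covers a majority that had H3K27me3 in morulae and a smaller number without it there.

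In the isolated lineages nearly all members were marked. ICM libraries marked 90.9% and 89.8% of members and TE libraries 92.8% and 94.9%. Both ICM libraries marked 11535 members (87.2%, against 8.89% of all bins and 87.0% of GV and BL bins) and both TE libraries 12034 (91.0%, against 9.95% and 92.0%). The GV and BL bins include the members themselves, and the rest of them had the mark in cleavage. These shares therefore do not show whether a return of the mark was particular to members. The TE shares lay above the ICM shares by 3.50 percentage points on average, and no pair of groups of 2 libraries can give an exact two-sided permutation p below 0.333, which this one gave. The means of the libraries were 5.01% in 8A, 68.5% in MO, 90.3% in ICM and 93.8% in TE. No test is given for this order, since the rule asked for no mark at 8C, the untreated counterpart of 8A, and for a mark in BL, which holds both ICM and TE.

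A small share of members was marked in 1 lineage only. Most bins of the autosomes (85.2%) were marked in neither lineage. The shares of all bins given here therefore do not show whether marking in 1 lineage was more or less frequent in members. Both libraries of both lineages marked 10717 members (81.0%, against 7.06% of all bins), and 7549 (57.1%, against 4.04%) were marked in both MO libraries as well. Members marked in both TE and no ICM library numbered 689 (5.21%, against 1.94% of all bins), and those marked in both ICM and no TE library 318 (2.40%, against 1.16%). None of the ICM and TE libraries marked 62 members (0.469%, against 85.2% of all bins). The rule asked for a mark in BL, which holds both lineages, so a low number here follows from the choice. Another 1964 members (14.9%, against 2.20%) had no H3K27me3 in either MO library and were marked in both libraries of both lineages.

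**Figure D2:**
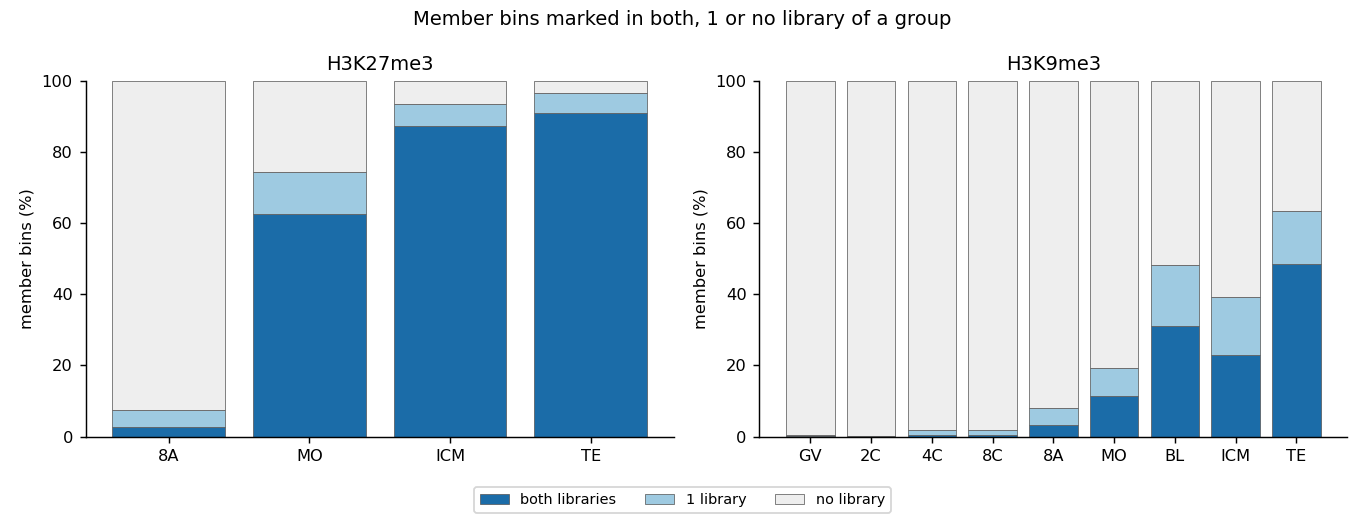
Share of the 13223 member bins (y axis, percent) marked in both libraries, 1 library or no library of each group (x axis), for H3K27me3 in groups outside the rule and for H3K9me3 in all groups. H3K27me3 in both libraries rises from 2.60% in 8A to 62.6% in MO, 87.2% in ICM and 91.0% in TE, and H3K9me3 from 0.378% in 8C to 48.4% in TE.

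Members with H3K27me3 in the morula were marked in the lineages more often than those without it; this difference was not tested. Of the 8278 members marked in both MO libraries, 95.9% were marked in both ICM and 94.8% in both TE libraries. Of the 3386 with no MO mark, 66.8% were marked in both ICM and 83.0% in both TE libraries, and 17.6% lacked the mark in both ICM libraries. These groups of members differed in cleavage too. H3K4me3 covered 41.3% and 40.5% of the length of members with both MO marks in the 2C libraries, and 21.0% and 19.8% of those with none.

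During the gap in H3K27me3, members were rich in H3K4me3. It covered 36.5% and 44.2% of member length in the GV libraries, 34.2% and 33.3% at 2C, 28.3% and 32.3% at 4C, and 19% and 31.8% at 8C. In MO the values were 3.96% and 4.16%, in BL 2.62% and 3.19%, in ICM 2.29% and 2.40%, and in TE 3.40% and 2.84%. Every GV and cleavage library thus lay above every library of MO and later. Relative to all autosomal bins the enrichment was 6.33-fold ± 0.141 (SD, n = 2) in GV, 7.44-fold ± 0.0535 at 2C, 7.35-fold ± 0.0941 at 4C and 6.95-fold ± 0.105 at 8C, then 2.20-fold ± 0.0859 in MO and 1.49-fold ± 0.120 in BL. The 8 control groups differed in this ratio (permutation test, 100000 resamples, p = 3e-05, adjusted p = 3e-05 over 3 marks). The 8C libraries differed in cover but not in enrichment, with log2 ratios of 2.78 and 2.81.

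H3K4me3 did not mark all members alike. At least 50% of a bin was covered in both GV libraries for 3437 members (26%, against 2.6% of all bins), which then had both H3K4me3 and H3K27me3 in the oocyte. Inside members 98.2% and 96.6% of the H3K4me3 length of the GV libraries was also under H3K27me3 peaks, although peak lists of pooled cells do not show whether a single chromosome carried both. All 6 cleavage libraries marked 1423 members (10.8%, against 0.86%), 1 to 5 of them marked 3718 (28.1%, against 3.26%), and none marked 8082 (61.1%, against 95.9%). Of all bins, 4.12% had it in at least 1 cleavage library. By stage, both libraries marked 2961 members at 2C (22.4%, against 1.95% of all bins), 2468 at 4C (18.7%, against 1.63%) and 1814 at 8C (13.7%, against 1.36%). From the morula on few members were marked: 258 in MO (1.95%, against 0.872%), 139 in BL (1.05%, against 1.1%), 107 in ICM (0.809%, against 0.804%) and 139 in TE (1.05%, against 1.01%). The shares at BL, ICM and TE were close to those of all bins. Of the 1423, 1266 had no H3K4me3 mark in either BL library (89.0%) and 112 had it in both (7.87%). Of the 4282 bins of all kinds with H3K4me3 in all 6 cleavage libraries, 73.6% had none in BL and 23.0% had it in both BL libraries.

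The members with H3K4me3 in all 6 cleavage libraries also had more of the other marks. H3K27ac covered 35.1% and 42.5% of their length in the 2C libraries, against 8.21% and 10.4% in the members with no H3K4me3 mark in cleavage. H3K27me3 covered 85.9% and 85.0% of their length in the MO libraries, against 56.7% and 51.8%. ATAC peaks covered 24.9% and 34.9% of their length in BL replicates 1 and 2, against 2.03% and 2.83%. H3K9me3 covered 51.7% and 59.9% in the BL libraries, against 22.9% and 32.0%.

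The longest runs of this kind showed how H3K4me3 ended. On chromosome 8, from 112095001 to 112125000, H3K4me3 covered 78.7% to 91.0% of the 30 kb over the 6 cleavage libraries, and 5.17% and 6.5% in MO. H3K27me3 there was 100% in both MO libraries, and H3K9me3 96% and 100% in BL. On chromosome 4, from 68870001 to 68900000, H3K4me3 persisted beside the returning H3K27me3, with 55.0% and 56.3% in MO, 29.2% and 36.0% in BL, and H3K27me3 at 100% in each of these libraries. On chromosome 15, from 80715001 to 80750000, the run was 35 kb long and H3K27me3 covered 100% of it in both MO libraries.

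H3K27ac had a shorter peak in members. It covered 7.53% and 9.25% of member length in GV, 15.3% and 19.2% at 2C, 9.23% and 9.79% at 4C and 7.68% and 7.18% at 8C. It was 2.05% and 2.11% in MO and 0.357% and 0.440% in BL, with 1.28% and 0.972% in ICM and 0.487% and 0.521% in TE. Both 2C values were above those of every other control library. Relative to all bins the mark went from 1.55-fold ± 0.10 (SD, n = 2) in GV to 6.96-fold ± 0.0705 at 2C and 5.39-fold ± 0.175 at 4C, then to 2.05-fold ± 0.0842 at 8C and to 0.455-fold ± 0.0162 in MO and 0.194-fold ± 0.0122 in BL. The ratio differed over the 8 control groups (permutation test, p = 1e-05, the lowest value 100000 resamples allow, adjusted p = 1.5e-05).

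Whole bins were seldom covered by H3K27ac. Both 2C libraries marked 479 members (3.62%, against 0.315% of all bins), and all 6 cleavage libraries marked 30 (0.227%, against 0.0239%). None of these 6 marked 10953 members (82.8%), and at least 1 of them marked 3.33% of all bins. Both libraries marked 135 members at 4C (1.02%, against 0.0858%) and 569 at 8C (4.30%, against 1.4%). From the morula on the shares lay below those of all bins, with 90 marked in MO (0.681%, against 2.1%), 10 in BL (0.0756%, against 0.935%), 48 in ICM (0.363%, against 2.3%) and 13 in TE (0.0983%, against 1.19%). Members were chosen for H3K27me3 in BL, and other bins chosen for it there were also low in H3K27ac, as given below. At 2C most of the acetylated length lay under H3K4me3 peaks, with 77.1% and 73.1% of it shared in replicates 1 and 2. The longest such run held 10 kb on chromosome 3, from 21310001 to 21320000. There H3K27ac covered 66.0% to 95.5% over the cleavage libraries, and H3K4me3 stayed at 78.0% to 98.0% from MO to TE, beside H3K27me3 at 76.0% to 100%, with no H3K9me3 in any library. Another 10 kb on chromosome 14, from 66210001 to 66220000, had 55.0% to 99.0% H3K27ac in cleavage and neither active mark from MO on.

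**Figure D3:**
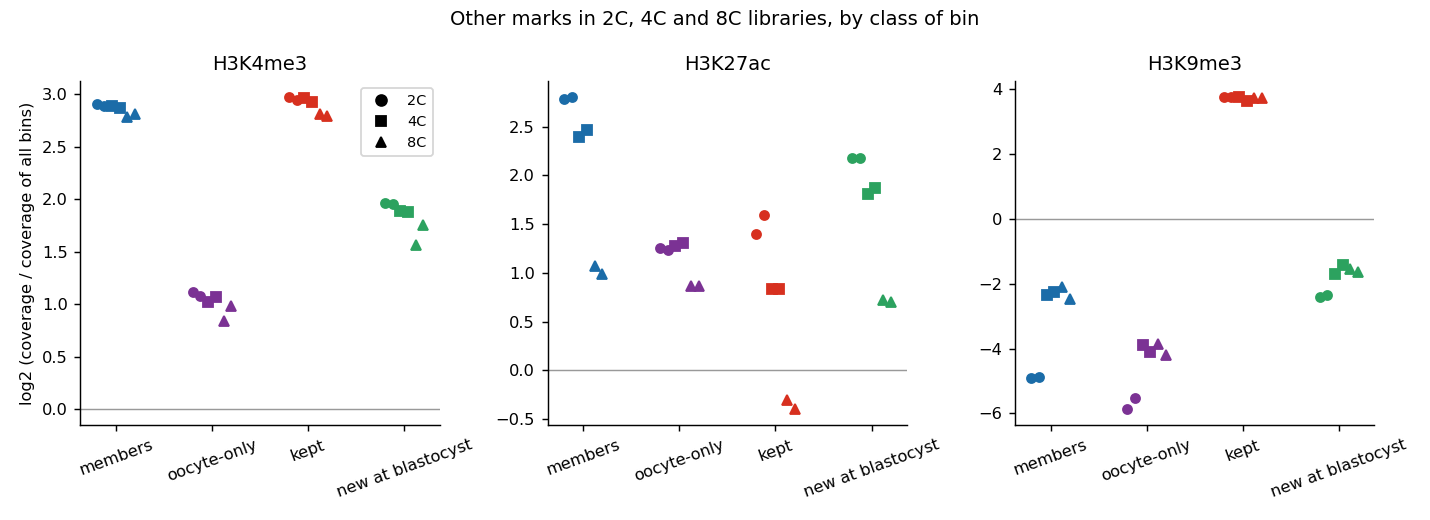
Log2 ratio of coverage to that of all autosomal bins (y axis) for H3K4me3, H3K27ac and H3K9me3 in each 2C, 4C and 8C library, over members and 3 other classes of bins (x axis). Members lie level with kept bins in H3K4me3, above every class in H3K27ac at 2C and 4C, and below kept and new bins in H3K9me3.

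Members were compared in the 6 cleavage libraries with 3 other classes of bins. Oocyte-only bins (9439) had H3K27me3 in both GV libraries and in no cleavage or BL library. Kept bins (2757) had it in all GV, cleavage and BL libraries, and bins new at the blastocyst (17929) in both BL but no GV or cleavage library. Differences are log2 ratios between classes within a library, tested by exact two-sided sign-flip permutation over 6 libraries, where 0.0313 is the smallest p, with adjustment over 9 tests.

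H3K4me3 in members was 3.58 times that in oocyte-only bins (log2 difference 1.84 ± 0.0610, SD over 6 libraries) and 2.03 times that in new bins (1.02 ± 0.104). Both differences had members higher in 6 of 6 libraries (exact permutation, adjusted p = 0.0352). Against kept bins the difference was -0.05 ± 0.0368, with members higher in 1 of 6 libraries (exact permutation, adjusted p = 0.0625), and it was 0.47 when the last 10 Mb of each autosome were left out (adjusted p = 0.0313 by the same exact permutation). With the level taken as the percent of bins marked, over all autosomes, the difference from kept bins was -0.33 (adjusted p = 0.0352 by the same exact permutation). These were the highest and lowest values of the alternative settings. Members were thus not shown to differ from kept bins in the main setting, and the direction depended on the setting. Bins near the first base stayed in when the last 10 Mb were left out. With all H3K27me3 lists shortened to one length, the difference from oocyte-only bins was 1.02. In BL the mean log2 ratio of H3K4me3 to all bins was 0.57 in members, -1.48 in kept, 0.017 in new and 0.88 in oocyte-only bins.

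H3K27ac set members apart from kept bins by a log2 difference of 1.43 ± 0.148, from oocyte-only bins by 0.96 ± 0.637 and from new bins by 0.51 ± 0.149. Members were higher in 6 of 6 libraries in each of these comparisons (exact permutation, adjusted p = 0.0352). Kept bins were chosen for H3K27me3 in cleavage and members for its absence, and a histone tail cannot carry both marks. The difference from kept bins is therefore not independent of the rule. The difference from oocyte-only bins was smallest at 8C, where it was 0.13 in replicate 2, and over the 6 libraries it was 0.52 with lists of one length. With the level taken as the percent of bins marked, the difference from kept bins was 0.74 and did not pass (exact permutation, adjusted p = 0.0625), and those from oocyte-only and new bins were 1.64 and 1.05. Low H3K27ac in BL was not particular to members. Its mean log2 ratio to all bins there was -2.37 in members, -1.77 in kept, -2.85 in new and 1.05 in oocyte-only bins. Members, kept and new bins were all chosen for H3K27me3 in BL.

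H3K9me3 gave the largest contrast. It covered 68.8% to 89.8% of the length of kept bins in the cleavage libraries and 0.159% to 1.57% of that of members, a log2 difference of -6.89 ± 1.38 with members lower in 6 of 6 libraries (exact permutation, adjusted p = 0.0352). Kept bins were chosen for H3K27me3 in cleavage and members for its absence, so this contrast is not independent of the rule. Of all bins with H3K27me3 in both 8A libraries, 89.5% also had H3K9me3 in both. Oocyte-only bins, also chosen without H3K27me3 in cleavage, had 0.0771% to 0.453% of their length under H3K9me3 there. Members were also lower than new bins (-1.31 ± 0.937) and higher than oocyte-only bins (1.42 ± 0.496), in 6 of 6 libraries each (exact permutation, adjusted p = 0.0352). Shortening all H3K27me3 lists to one length took the difference from new bins to -0.49 (adjusted p = 0.313 by the same exact permutation), and counting any cleavage base as a mark took that from oocyte-only bins to 1.06 (exact permutation, adjusted p = 0.105).

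The near absence of H3K9me3 held for single members, which the rule chose without H3K27me3 in cleavage. No member had H3K9me3 in all 6 cleavage libraries, against 3.32% of all bins, and 12832 members (97.0%, against 89.7% of all bins) had it in none, which leaves 10.3% of all bins with at least 1. By stage, both libraries marked 16 members in GV (0.121%, against 6.06% of all bins), 1 at 2C (against 3.93%), 39 at 4C (0.295%, against 5.6%) and 50 at 8C (0.378%, against 5.64%). In the GV libraries H3K9me3 covered 0.264% and 0.252% of member length, and 7.54% and 7.47% of all autosomal bins.

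From the morula on H3K9me3 covered a growing part of member length. It covered 1.57% and 1.21% of member length at 8C, 12.5% and 17.2% in MO, 32.6% and 41.9% in BL, 25.8% and 33.6% in ICM, and 52.8% in both TE libraries. All MO and later libraries exceeded all earlier ones. Other classes carried it in TE too: it covered 83.5% and 82.3% of kept bins, 29% and 30.0% of new bins and 3.51% and 3.68% of oocyte-only bins. Relative to all bins the ratio was 0.0337 ± 0.000665 (SD, n = 2) at 2C and 0.208 ± 0.0370 at 8C, then 2.85 ± 0.179 in MO, 7.92 ± 0.218 in BL, 6.59 ± 0.0783 in ICM and 8.53 ± 0.0377 in TE. It differed over the 8 control groups (permutation test, p = 1e-05, the lowest value 100000 resamples allow, adjusted p = 1.5e-05). Members were chosen without H3K27me3 in cleavage and with it in BL, and the lists of both repressive marks overlapped. This course of H3K9me3 is therefore not independent of the rule. The ratios are over all autosomes, and values by position are given below.

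Single members showed the same. Both MO libraries marked 1492 members with H3K9me3 (11.3%, against 3.97% of all bins), both BL libraries 4100 (31%, against 3.54%), both ICM libraries 3027 (22.9%, against 3.21%) and both TE libraries 6399 (48.4%, against 5.15%). Of the 21081 GV and BL bins, 57.9% had H3K9me3 in both TE libraries, a larger share than of members. Members with H3K9me3 in both BL libraries and in none of the GV and cleavage libraries numbered 3883 (29.4%, against 1.78% of all bins). In TE 2219 members had H3K9me3 that no ICM library showed (16.8%, against 1.98% of all bins), and 149 the reverse (1.13%, against 0.845%). Counted within bins with H3K9me3 in both TE libraries, these were 2219 of 6399 members and 9867 of 25648 bins of all kinds. H3K9me3 in TE without ICM is therefore not shown to be particular to members. With 2 libraries a side, the exact two-sided permutation p of ICM against TE was 0.333, the smallest possible.

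Inside members, nearly all H3K9me3 length lay under H3K27me3. The share was 99.3% and 99.1% in BL, 97.8% and 97.7% in ICM, and 95.1% and 96.5% in TE, where H3K27me3 itself covered 93.8% and 94.0%, 86.2% and 86.4%, and 86.8% and 89.5% of member length. Members with H3K27me3 in both MO libraries had most: H3K9me3 covered 66.5% and 65.8% of their length in TE, against 24.3% and 26.7% for members with no MO mark. In BL the values were 46.7% and 57.9%, against 6.39% and 11.3%.

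**Figure D4:**
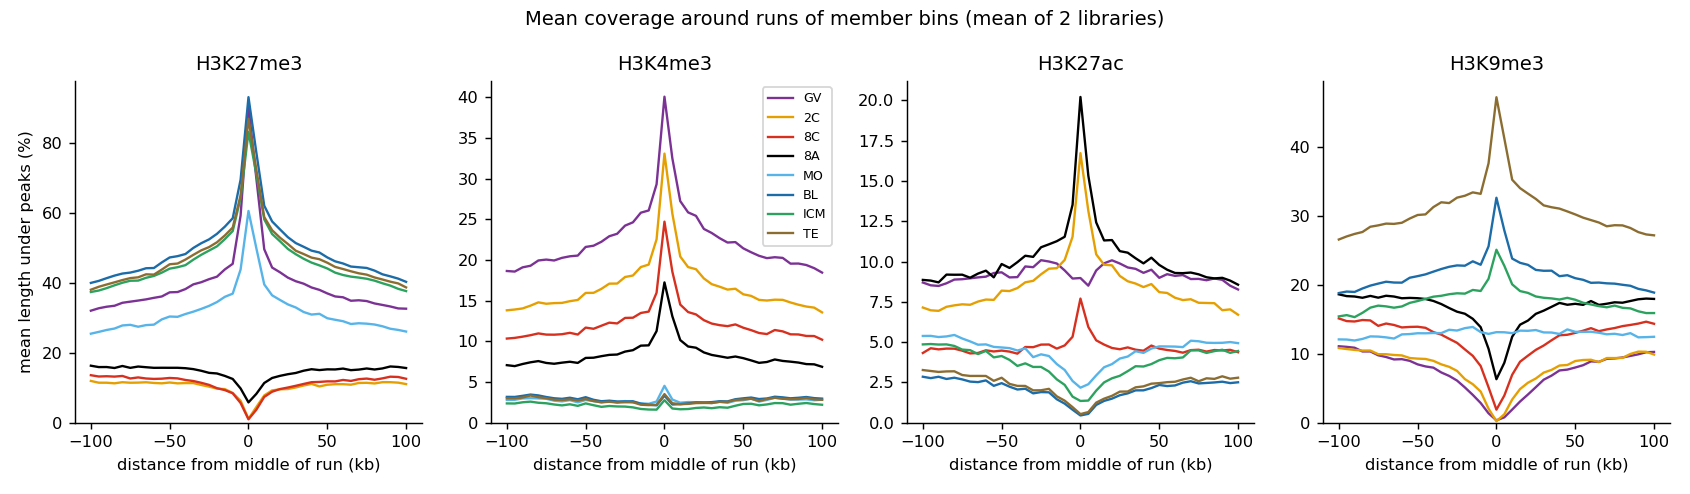
Mean percent of length under peaks (y axis) by distance from the middle bin of 6274 runs of members (x axis, kb; the left one of a middle pair), as the mean of 2 libraries per group. H3K27me3 at 8C dips from 13.6% at 100 kb before the middle to 0.996% at it, H3K4me3 and early H3K27ac peak there, and H3K9me3 turns from a dip at 8C to a peak of 47.2% in TE.

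ATAC-seq was done from the blastocyst on. Peaks covered 6.09%, 8.72% and 9.07% of member length in the BL libraries, 5.84%, 6.80% and 5.62% in ICM and 5.43%, 6.5% and 5.21% in TE, and the groups overlapped on this scale. Relative to all bins the cover was 1.97-fold ± 0.117 (SD, n = 3) in BL, 1.75-fold ± 0.0237 in ICM and 1.61-fold ± 0.0483 in TE. The ratios differed over the 3 groups (exact permutation test, p = 0.00357, the smallest the 9 libraries allow), but the cover not set against all bins did not pass (p = 0.0929, exact permutation). All 3 ATAC libraries of BL marked 281 members (2.13%, against 0.656% of all bins), those of ICM 216 (1.63%, against 0.637%) and those of TE 165 (1.25%, against 0.711%).

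Under α-amanitin the 8-cell embryos, which had no part in the rule, had both repressive marks in a small share of members. H3K27me3 marked 4.77% and 5.24% of members in the 8A libraries; the 8C lists entered the rule, so no contrast with 8C is drawn for this mark. Both 8A libraries marked 344 members (2.60%, against 4.94% of all bins). All bins include those also marked at 8C, which the rule keeps out of the members, so these shares are not alike. By the rule all 344 had the mark in no 8C library, and of all bins 0.662% had it in both 8A and no 8C library. The reverse held for 0.402% of all bins and can hold for no member. H3K9me3 covered 6.05% and 5.33% of member length in 8A and 1.57% and 1.21% in 8C. Both 8A libraries marked 415 members with it (3.14%, against 6.13% of all bins), of which 298 had it in no 8C library (2.25%, against 0.677%). The reverse held for 5 members (0.0378%, against 0.377%). Of the 344 members with H3K27me3 in both 8A libraries, 186 (54.1%) also had H3K9me3 in both, while of all 24571 bins with H3K27me3 in both 8A libraries 89.5% did. H3K27me3 in both MO libraries was found in 294 of the 344 (85.5%), in 62.6% of all members and in 28.4% of the 24571. Unlike the members, the 24571 were chosen neither for a mark in BL nor against one at 8C. Nothing about α-amanitin is therefore read from the shares of the 344 and the 24571.

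In percentage points of cover H3K27ac differed most between 8A and 8C, while on the log2 ratio scale the difference was 1.93 for H3K9me3, 1.33 for H3K27ac and 0.18 for H3K4me3. It covered 20.6% of member length in both 8A libraries, against 7.68% and 7.18% in 8C and 9.23% and 9.79% at 4C. Relative to all bins the 8A value was 5.16-fold ± 0.109 (SD, n = 2) and the 8C value 2.05-fold ± 0.0842. Both 8A libraries marked 1526 members (11.5%, against 1.12% of all bins). Both 8A and no 8C libraries marked 1013 members (7.66%, against 0.62% of all bins), and both 8C and no 8A libraries 126 (0.953%, against 0.87%). The other classes also had more H3K27ac in 8A, with 12.4% and 12.3% against 6.02% and 5.88% in new bins and 8.14% and 8.58% against 2.95% and 2.73% in kept bins. In oocyte-only bins it covered 9.08% and 8.88% in 8A and 6.62% and 6.57% in 8C.

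H3K4me3 in members was 19.1% and 16.6% in 8A and 19% and 31.8% in 8C, and the groups overlapped. Both 8A libraries marked 1185 members (8.96%, against 0.726% of all bins), and 434 had it in both 8C and no 8A library (3.28%, against 0.502%), with 6 the reverse (0.0454%, against 0.00583%). Relative to all bins it was 7.85-fold ± 0.00583 in 8A and 6.95-fold ± 0.105 in 8C. The exact two-sided permutation p of 8A against 8C was 0.333, the smallest possible, for each of H3K4me3, H3K27ac and H3K9me3.

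Members lay in 6304 runs of adjoining bins. Of these 3225 were single bins, and 1535 runs of 3 or more bins held 52.3% of all members. Members need at least 50% of a bin covered in the GV and BL lists, which favours wide peaks, so the widths there are a description. The median width of peaks over members was 12 kb and 9.6 kb in the GV lists and 13.6 kb and 14 kb in the BL lists. GV and BL peaks over the same run were compared in 4 pairs of lists, and the BL peak was the wider in 57.8% to 70.3% of pairs. The GV replicates differed from each other too, with medians of 13 kb and 10 kb and replicate 2 the wider in 28.2% of pairs, so no difference in width between the stages is read from this.

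The 5 longest runs had some length under H3K4me3 in every cleavage library and under H3K27ac in both 2C libraries, and no H3K9me3 up to 8C. The first, 120 kb on chromosome 18 from 12100001 to 12220000, had H3K27me3 over 96.8% and 96.5% in GV, 0% to 0.833% in cleavage, and 97.3% and 100% in MO. H3K4me3 covered 46.5% and 54.4% of it in GV and 24.1% and 48.9% at 8C, and was absent from MO on. H3K9me3 was absent up to 8C, covered 40.8% and 37.3% in MO and reached 97.7% and 97.5% in TE. The next were 110 kb on chromosome 29 (46940001 to 47050000), 100 kb on chromosome 29 (30160001 to 30260000), 90 kb on chromosome 5 (104970001 to 105060000) and 90 kb on chromosome 12 (84475001 to 84565000). Among these, the run of 100 kb had least H3K27me3 in MO, with 47.4% and 31.6%, no H3K9me3 there, and 3.4% and 12.4% H3K9me3 in BL. Its H3K4me3 cover in 8C replicate 1 was 1.6%, below the 2.76% of all autosomal bins in that library. Among members with both MO marks the longest runs were those on chromosomes 18 and 12 and then 85 kb on chromosome 9 (101920001 to 102005000).

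The longest run of members marked in both TE and no ICM library was 45 kb on chromosome 13, from 72820001 to 72865000. H3K27me3 covered 92.9% and 93.3% of it in TE and 0% in both ICM libraries, although it had covered 81.3% and 74.2% in MO. H3K9me3 covered 75.6% and 48.0% of this run in TE and 0% in ICM. The runs next in length were 25 kb on chromosome 25 (2490001 to 2515000) and 20 kb on chromosome 13 (54710001 to 54730000). The run on chromosome 25 had no H3K9me3 in any TE or ICM library. That of 20 kb had 24.0% and 22.0% in TE and 0% in ICM. In the ICM direction the longest was 20 kb on chromosome 14, from 62980001 to 63000000, with H3K27me3 and H3K9me3 both at 100% in each ICM library and at 0% in each TE library. The others there were 15 kb each, on chromosomes 1 (143915001 to 143930000) and 8 (73935001 to 73950000). Neither had H3K9me3 in any ICM or TE library, so H3K9me3 did not go with H3K27me3 in every such run.

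Members were concentrated towards the far ends of the chromosomes. Bovine autosomes are acrocentric, with the centromere near the first base. Within 5 Mb of the last base 12.5% of bins were members, from 5 to 10 Mb 6.82%, and from 25 to 30 Mb 1.37%. Within 5 Mb of the first base the share was 2.36%. The last 10 Mb held 42.4% of members, 49.1% of kept bins, 25.5% of new bins, 18.4% of oocyte-only bins and 11.7% of all bins. By autosome the share of bins that were members ran from 1.31% on chromosome 2 to 5.86% on chromosome 19.

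**Figure D5:**
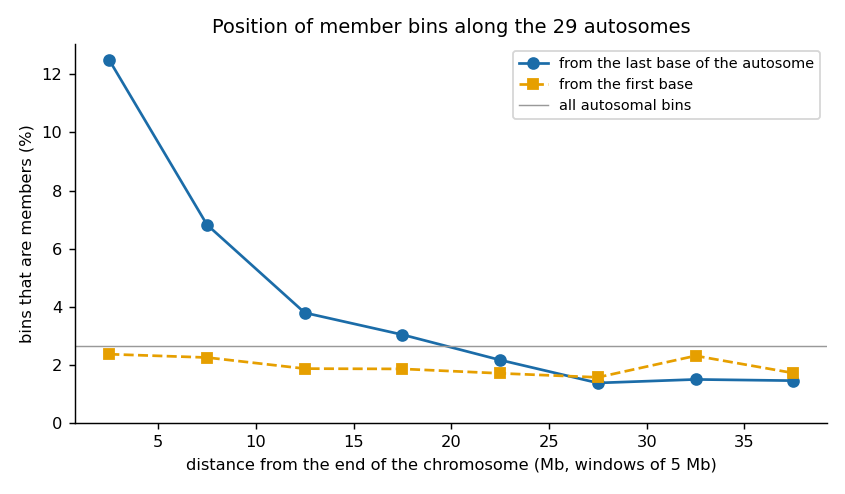
Percent of 5 kb bins that are members (y axis) in windows of 5 Mb, by distance from the last base (circles) or the first base (squares) of the 29 autosomes (x axis, Mb). The share falls from 12.5% in the last 5 Mb to 1.37% between 25 and 30 Mb, and from the first base it lies between 1.57% and 2.36%.

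H3K4me3 was also higher towards these ends in all bins, so the member values were taken apart there. In 2C replicate 1 it covered 37.7% of member length in the last 10 Mb, where all bins had 13.9%, and 31.6% elsewhere, where all bins had 3.34%. In the same library H3K27ac covered 16.5% of member length in the last 10 Mb and 14.4% elsewhere, against 5.70% and 1.75% of all bins. At 2C, 4C and 8C both marks covered more of the members than of all bins in either part of the chromosomes, in every library. From MO on this no longer held: in MO replicate 1 H3K4me3 covered 2.34% of member length in the last 10 Mb, where all bins had 2.87%, and 5.15% elsewhere, where all bins had 1.59%. H3K27ac lay below all bins in both parts in every MO, BL, ICM and TE library. H3K9me3 was higher towards these ends too. In MO replicate 1 it covered 20.2% of member length in the last 10 Mb, where all bins had 13.3%, and 6.80% elsewhere, where all bins had 3.44%. In TE replicate 1 the values were 70.3%, against 27.5% of all bins, in the last 10 Mb, and 39.9%, against 3.35%, elsewhere.

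Members lay near other H3K27me3 bins. The median distance from a member to a bin marked in at least 1 cleavage library was 25 kb, against 75 kb from any autosomal bin. The nearest bin new at the blastocyst was also at a median of 25 kb, against 230 kb from any bin, and the nearest kept bin at 310 kb, against 3850 kb. By these medians members lay nearer to kept bins than bins in general did. Within 50 kb of a kept bin lay 18.8% of members, and 1.45% touched one. The shares of all bins at these distances were not taken.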

How the data were processed

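Peaks were called by the authors on each of the 81 libraries separately. Per the submitters' processing notes, the build was ARS-UCD1.2, and the programs listed are SICER, SAMtools 1.9, Picard 2.26.10, BWA 0.7.9a, cutadapt 1.8.3 and Trim Galore 0.4.0. File names point to epic2 instead of SICER, so which of them called the peaks was not settled. Cutoffs and control libraries were not given in these sources. The deposited score, a whole number per peak of no stated meaning, only ranked peaks within a list. Peak ends were read as the last base, counted from 0.

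Covered bases per 5 kb bin were computed with Python 3.11.15 and NumPy 2.4.6. For other marks and ATAC, the level was log2((percent of member length covered + 0.01)/(percent of all autosomal bins covered + 0.01)). Folds are means of this ratio over libraries. Tests permuted library labels (between-group sum of squares) or flipped the sign of within-library differences, with Benjamini-Hochberg adjustment, and code was tested on simulated data. Genes were not assigned, since no annotation of the lists' build was used here. Named regions are the longest runs of members, of those with both MO marks, of those of 1 lineage only, and of those with an active mark in all cleavage libraries. Members, classes and tests were chosen with earlier results of these data known. Alternatives are in the closing section.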

Additional observations from a re-analysis of the deposited data

Results flagged for a closer look

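The X chromosome was left out of the rule. There 423 bins (1.52% of X bins, against 2.66% of autosomal bins) had H3K27me3 in both GV and both BL libraries and in no cleavage library, a signal in data outside the comparisons above. They were marked in 98.8% of cases in each ICM library and in 86.8% and 92.0% in the TE libraries, the reverse of the autosomal order, and this difference was not tested. H3K9me3 covered 71.6% and 73.8% of their length in TE.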

How the results depend on the processing

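Depth is unknown, so a bin without a peak is one not called at an unknown depth. The 13223 members became 32027 in 2 kb bins, 6706 in 10 kb bins, 4843 with H3K27me3 lists of equal length, 7623 without the last 10 Mb of the autosomes (added after seeing the data) and 423 on X. The share with both MO marks was 65.6% at 25% bin cover, 58.2% at 75%, 51.1% without the last 10 Mb and 76.3% in equal lists. That for ICM was 82.5% without the last 10 Mb, 88.2% in equal lists and 98.1% on X, and that for TE 93.3% at 25% cover, 87.4% at 75%, 88.4% in equal lists and 85.3% on X. For 8A it was 2.96% at 25% cover, 1.72% with no cleavage base allowed, 1.55% without the last 10 Mb, 3.16% in equal lists and 0% on X.

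Leaving out single lists gave 13384 to 16005 members, and shares of 58.9% to 63.1% for MO, 83.4% to 87.3% for ICM, 86.9% to 91.1% for TE and 2.45% to 3.36% for 8A. The stage tests of the 3 marks stayed past the threshold under every alternative run. In equal lists the differences from oocyte-only bins were 1.02 for H3K4me3 and 0.52 for H3K27ac, both past the threshold. H3K4me3 against kept bins was 0.013 at 75% cover and 0.47 without the last 10 Mb, both of the other sign, and -0.33 with bins counted, -0.089 in 10 kb bins and -0.079 in equal lists, where it passed. H3K27ac against kept bins was 0.74 with bins counted, H3K9me3 against oocyte-only bins 1.35 at 25% cover and 1.06 with no cleavage base allowed, and against new bins -0.49 in equal lists; these did not pass. ATAC not set against all bins had a range of 0.46 and did not pass. The causes were not tested.

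Without 1 cleavage library of the mark, 5 libraries cannot give an exact p below 0.0625. Over single lists left out, log2 differences from oocyte-only, kept and new bins were 1.66 to 2.30, -0.096 to -0.0038 and 0.85 to 1.14 for H3K4me3, 0.83 to 1.28, 1.38 to 1.48 and 0.41 to 0.60 for H3K27ac, and 1.21 to 1.73, -7.10 to -6.46 and -1.46 to -1.06 for H3K9me3.

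Replicate numbers did not pair libraries, since deviations of same-numbered libraries correlated by more than 0.1 in 2 of 28 group pairs for H3K4me3 and in 0 of 28 for each other mark. With the replicate block, the range of stage means was 2.33 for H3K4me3, 5.17 for H3K27ac and 7.99 for H3K9me3 on the log2 scale (permutation within blocks, adjusted p = 0.00016, 9e-05 and 0.00015), and no call changed in these or in the ATAC test.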
